A study of Mus musculus with 7 samples.

Results

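The LC3 and GABARAP proteins and the core machinery that attaches them to membranes were examined in the retinal pigment epithelium (RPE) of Mfrp rd6 mutant and wild-type mice. The members are 10 listed genes: Map1lc3a, Map1lc3b, Gabarap, Gabarapl1, Gabarapl2, Becn1, Atg5, Atg7, Rubcn and Sqstm1. All 10 were found among 19938 genes represented by a probe set annotated to exactly 1 symbol, and the probe set with the highest mean was used for each gene. RNA from 7 samples was hybridised to whole-transcript arrays. The wild-type group held 4 samples, and the mutant group held 3 samples that carry the rd6 allele of Mfrp, a recessive allele of a gene made in the RPE that leads to retinal degeneration. Both groups are on the C57Bl/6J background, and no sample was treated. The age field of the labels gives 8 weeks for the wild-type samples and 12 weeks for the Mfrp rd6 samples, in which case age and genotype cannot be told apart, whereas the growth protocol gives 12 weeks for Mfrp rd6 replicate 1 and 8 weeks for the rest. The number of animals behind a sample is not stated, so the p-values below measure spread among samples that may be technical replicates.

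All values are log2 signals, so a difference of 1 is a doubling, and they serve to compare 1 gene between arrays, not the levels of different genes. The array medians ranged from 6.52 to 6.58, with upper quartiles of 8.41 to 8.51. The mean of 12 RPE markers lay between 11.04 and 11.18 on all 7 arrays, so the labelled cell type was present in both groups. Of these 12 markers, 0 were higher and 1 was lower in Mfrp rd6 past the test. The pellet of loosened cells also held RNA of other cells. The mean of 18 microglia and macrophage markers was 7.20 to 7.30 in wild type and 8.77 to 9.32 in Mfrp rd6, with 14 markers higher past the test and 0 lower. The mean of 20 skeletal muscle markers was 6.68 to 7.80 in wild type and 7.83 to 8.83 in Mfrp rd6. In such mixed samples, fewer cells of a type and less RNA per cell cannot be told apart.

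Autophagy encloses cytoplasm in a double membrane and delivers it to lysosomes. The ATG8 family proteins (LC3A, LC3B, GABARAP, GABARAPL1 and GABARAPL2) are trimmed by ATG4 proteases, activated by ATG7, and joined to lipid on the growing membrane with the help of the complex of ATG12, ATG5 and ATG16L1. Beclin, the product of Becn1, belongs to the lipid kinase complexes that start the membrane, and the cargo receptor p62, the product of Sqstm1, binds both ubiquitinated cargo and LC3 and is degraded with them. The RPE takes up shed photoreceptor outer segments every day and also places LC3 on these phagosomes, a process called LC3-associated phagocytosis that uses Rubicon (Rubcn) and an oxidase. The arrays read RNA, and neither the lipid-bound form of LC3 nor autophagic flux was measured.

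For Map1lc3a and Becn1 no promoter entry was available, so their promoters were not searched. RefSeq promoter sequences (GRCm38.p6, 250 bases before to 50 after each gene start) were matched for the other 8 of the 10 genes. They were searched on both strands for CACGTG, the E-box at the heart of the element bound by TFEB, the transcription factor of lysosomal and autophagy genes. The E-box was found for 3 of the 8, Atg7, Atg5 and Rubcn (the last in 1 of its 2 listed promoters), against 7.15% of all 32851 promoters in the table. The longer core TCACGTGA, which contains the E-box, was found for 0 of the 8, against 0.974% of all promoters. The pattern TGACNNNGC, to which NRF2 binds in the antioxidant response element, was found for Map1lc3b alone among the 8, against 12.4% of all promoters. These matches are a description of the letters in the windows. The 3 E-boxes are shown because the gene lists below include the TFEB family and not NRF2, with the E-box in capitals. The Atg7 site is at chr6:114670952-114670981 on the plus strand, the Atg5 site at chr10:44268313-44268342 on the plus strand and the Rubcn site at chr16:32868437-32868466 on the minus strand.
Atg7: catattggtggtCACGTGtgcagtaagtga
Atg5: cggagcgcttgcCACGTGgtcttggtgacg
Rubcn: cgcctagcacatCACGTGtacccaggttag

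Among the 10 genes, Map1lc3a was higher in Mfrp rd6 past the test and 0 were lower. The threshold was an adjusted p of 0.05 in limma, which 2.15% of all genes tested passed (1.34% upward, 0.813% downward), so 1 call among 10 genes is a small count. The median change of the 10 genes was -0.05, against -0.02 over all genes, and the median size of change was 0.08 against 0.09. Without Map1lc3a, the changes of the other 9 lay between -0.14 and 0.07. At an unadjusted limma p under 0.05 their count was also 0, against 3061 of all 19938 genes.

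**Figure D1:**
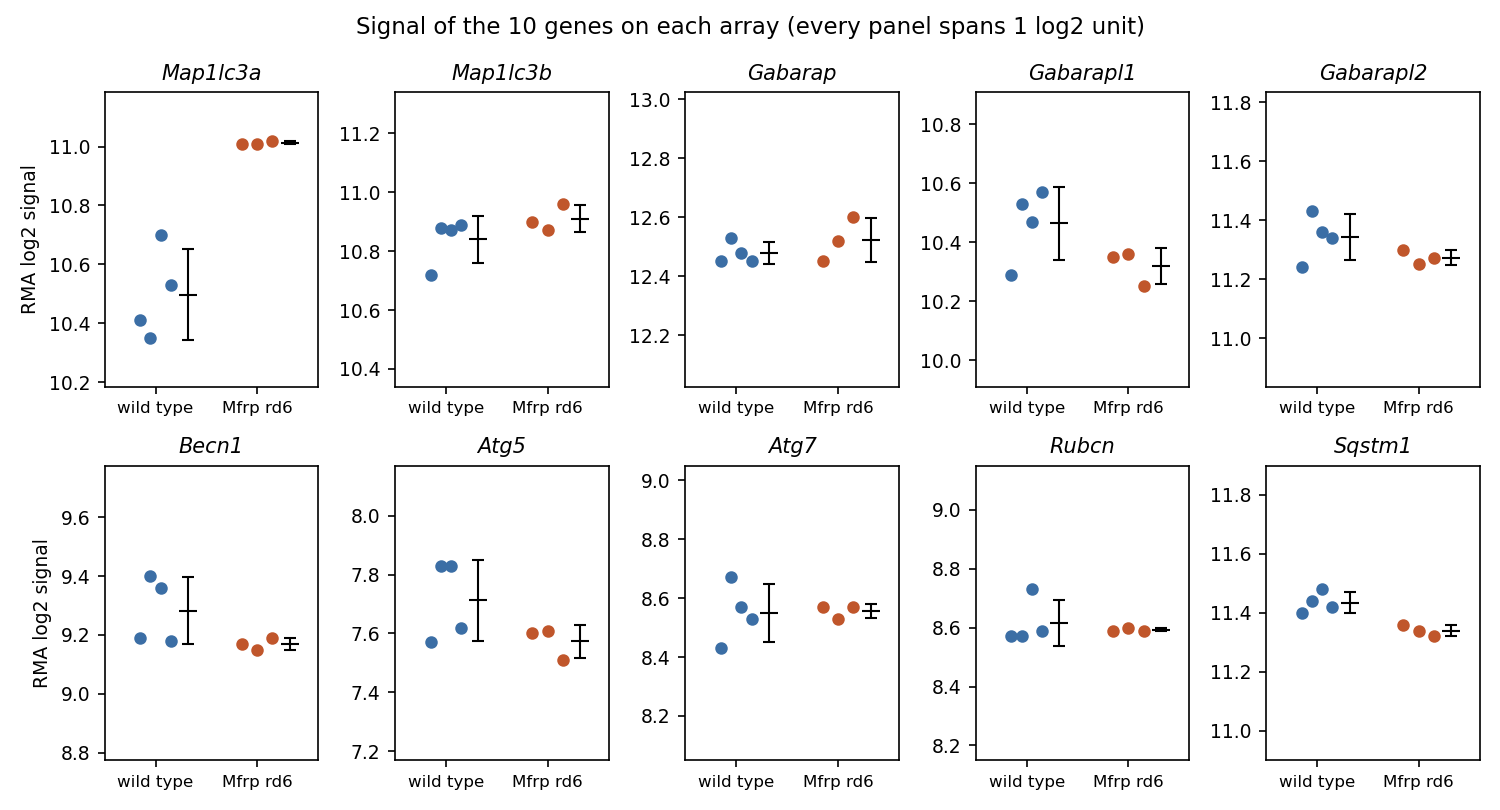
RMA log2 signal of the 10 genes, 1 panel per gene, with 1 point per array (4 wild type, 3 Mfrp rd6) and the mean with its SD to the right of each group. All panels span 1 log2 unit. The Map1lc3a points of Mfrp rd6 sit at 11.01 to 11.02, above all wild-type points, and the Sqstm1 points lie just below those of wild type.

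Map1lc3a encodes LC3A, a close relative of the widely used autophagosome marker LC3B. It read 10.41, 10.35, 10.70 and 10.53 in wild-type replicates 1 to 4, and 11.01, 11.01 and 11.02 in Mfrp rd6 replicates 1 to 3. Every mutant array lay above every wild-type array, and the mutant arrays were nearly identical while the wild-type arrays spread over 0.35. The means were 10.50 ± 0.15 (SD, n = 4) and 11.01 ± 0.01 (SD, n = 3), a 1.43-fold rise (log2 change 0.52, SE 0.09, 95% confidence interval 0.32 to 0.72, limma adjusted p = 0.0186). The exact two-sided permutation test gave p = 0.0286, the smallest that 35 splits of 7 arrays allow.

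The change of Map1lc3a was positive in all 19 alternative fits, from 0.30 to 0.60, and passed the test in 12 of them. The call was lost when Mfrp rd6 replicate 1 was left out, which leaves equal ages under the growth protocol (0.52, limma adjusted p = 0.0692). Leaving out another mutant array also lost it, with limma adjusted p-values of 0.0669 for replicate 2 and 0.0599 for replicate 3, as did leaving out wild-type replicate 1 (0.49, limma adjusted p = 0.0547). Leaving out wild-type replicate 3, the wild-type array with the highest Map1lc3a, gave 0.58 (limma adjusted p = 0.00931).

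**Figure D2:**
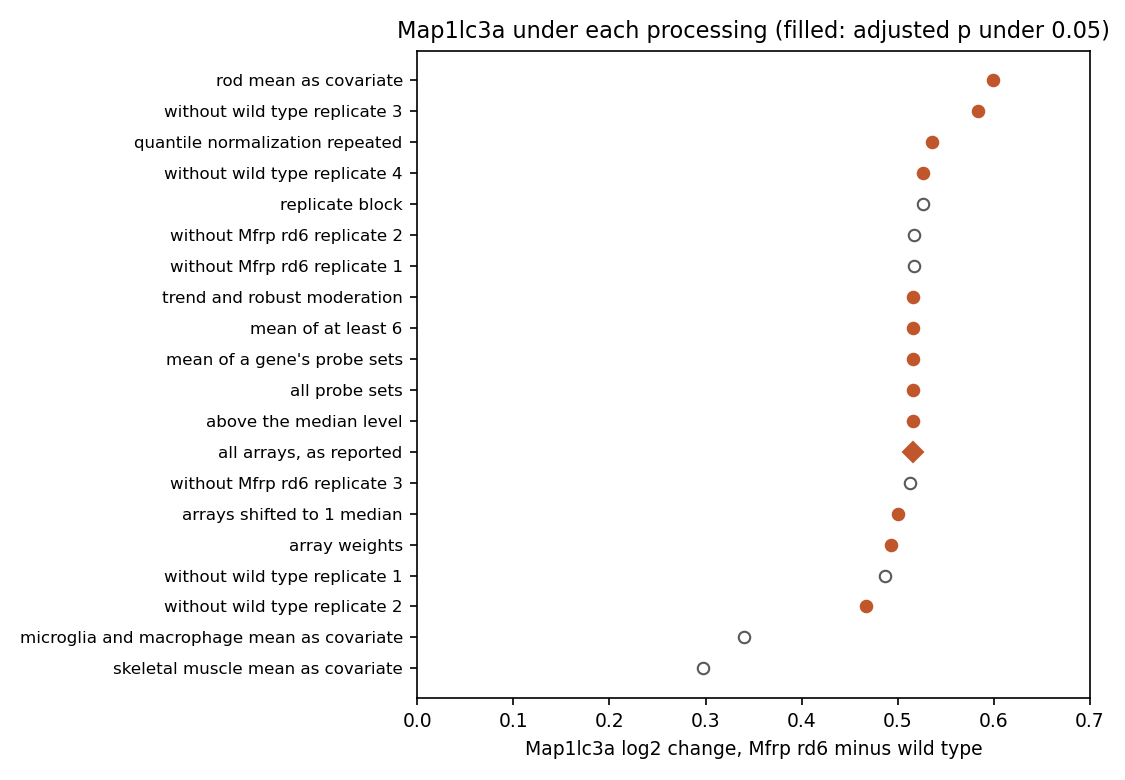
Log2 change of Map1lc3a (Mfrp rd6 minus wild type) under the reported fit (diamond) and 19 alternatives (circles), filled where the limma adjusted p was under 0.05. All values are above 0, and the lowest 2, 0.30 and 0.34, came with the skeletal muscle and the microglia and macrophage marker means as covariates.

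Marker means of some other cells were also higher in Mfrp rd6. Across the mutant arrays Map1lc3a was nearly level (11.01 to 11.02), while the microglia and macrophage mean ran from 8.77 to 9.32. The skeletal muscle mean ran from 7.83 to 8.83 on these arrays. Microglia and macrophage means did not overlap between groups, and with this mean as a covariate the Map1lc3a change was 0.34 (limma adjusted p = 0.999), a fit that leaves little of the contrast since the mean nearly coincides with genotype. With skeletal muscle as the covariate it was 0.30 (limma adjusted p = 0.668). The skeletal muscle means did not overlap between groups either, and that fit made 50 calls over all genes, against 429 in the main fit. Wild-type replicate 3 and Mfrp rd6 replicate 3 had close skeletal muscle means, 7.80 and 7.83, and Map1lc3a read 10.70 and 11.02 on them. Wild-type replicate 4 and Mfrp rd6 replicate 1 had close choroidal endothelial means, 7.35 and 7.39, and Map1lc3a read 10.53 and 11.01. The endothelial mean of wild-type replicate 3 was also close, 7.33, with Map1lc3a at 10.70. That array had the highest Map1lc3a and the highest skeletal muscle mean in wild type. All 12 endothelial markers had a positive change, with a median of 0.39. Neuronal markers mostly read lower in the mutant: 11 of 14 inner retinal neuron markers and 14 of 14 rod markers had a negative change, with 0 called in either list, and the inner retinal neuron means were 5.56 to 6.07 in wild type and 5.52 to 5.70 in Mfrp rd6. The dimmest marker had a wild-type mean of 5.61 among skeletal muscle and 4.78 among microglia and macrophages. The latter is below the lower quartile of every array (4.9 to 5.02). With the rod mean as a covariate Map1lc3a rose by 0.60 (limma adjusted p = 0.0435). The means of 9 surface epithelium markers (11.57 to 11.68 in wild type, 11.39 to 11.48 in Mfrp rd6) and of 8 melanocyte and fibroblast markers (7.80 to 7.94 and 7.59 to 7.77) were lower in the mutant without overlap, with 0 and 1 markers lower past the test and 0 higher. The mean of 11 lens markers overlapped (6.07 to 6.33 and 6.05 to 7.52), with 0 called. The part of these other cells in the Map1lc3a rise was not tested.

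**Figure D3:**
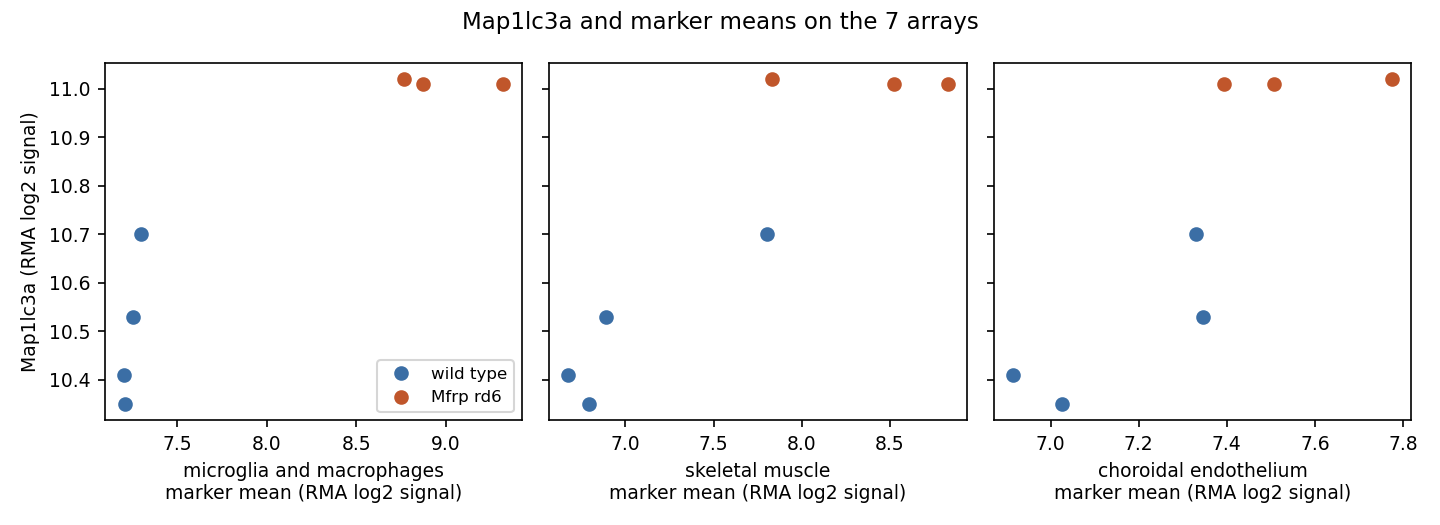
Map1lc3a (RMA log2 signal, vertical axis) against the mean of microglia and macrophage, skeletal muscle and choroidal endothelial markers (RMA log2 signal, horizontal axes), 1 point per array. The groups are far apart on the microglia axis, whereas the highest wild-type skeletal muscle mean, 7.80, lies next to the lowest of Mfrp rd6, 7.83, at Map1lc3a values of 10.70 and 11.02.

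The other LC3 gene did not follow. Map1lc3b, which encodes LC3B, read 10.72, 10.88, 10.87 and 10.89 in wild type and 10.90, 10.87 and 10.96 in Mfrp rd6. The groups overlapped, and wild-type replicate 1 stood below the other arrays. The change was 0.07 (SE 0.07, 95% confidence interval -0.09 to 0.23, limma adjusted p = 0.715). A second probe set annotated to Map1lc3b, with values of 10.64 to 10.93, changed by 0.09. The RefSeq gene table holds 8 pseudogenes whose names start with Map1lc3, and whether these probe sets also read them was not tested.

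The GABARAP branch, which acts mainly in later maturation of the autophagosome, did not pass the test either. Gabarap read 12.45, 12.53, 12.48 and 12.45 in wild type and 12.45, 12.52 and 12.60 in Mfrp rd6 (change 0.05, 95% confidence interval -0.11 to 0.20). Gabarapl1 read 10.29, 10.53, 10.47 and 10.57 in wild type and 10.35, 10.36 and 10.25 in Mfrp rd6. Wild-type replicate 1 alone overlapped the mutant arrays here, and the change was -0.14 (SE 0.08, limma adjusted p = 0.458), or -0.20 without that array (limma adjusted p = 0.222). Gabarapl2 read 11.24, 11.43, 11.36 and 11.34 in wild type and 11.30, 11.25 and 11.27 in Mfrp rd6 (change -0.07, 95% confidence interval -0.22 to 0.09). Its other probe set was dim, at 5.43 to 5.98, and overlapped between groups. The gene table holds 6 pseudogenes whose names start with Gabarapl2.

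Wild-type replicate 1 was the lowest wild-type array, ties included, in 8 of the 10 genes. It was also the lowest in 54.6% of the 8470 genes at least as bright as the dimmest of the 10, so this order is shared by bright genes in general.

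Whether the ATG8 genes changed unequally was tested on the difference of 2 genes within each array, over all 10 pairs. The change of Map1lc3a was above that of each of the other 4. The differences of its log2 change were 0.45 from Map1lc3b, 0.47 from Gabarap, 0.66 from Gabarapl1 and 0.59 from Gabarapl2. Each of these 4 gave an exact two-sided permutation p of 0.0286, the smallest possible, and 0.0476 after Benjamini-Hochberg adjustment over the 10 pairs. Map1lc3b also stood apart from Gabarapl1 by 0.22 and from Gabarapl2 by 0.14, with the same exact and adjusted p. The remaining 4 pairs had exact permutation p-values of 0.0857 to 0.714. The adjusted p of 0.0476 needs the 6 pairs at the smallest p. With the mean of both probe sets used for Map1lc3b and Gabarapl2, 5 pairs reached it, the smallest adjusted p was 0.0571 and 0 of the 10 pairs passed, with differences of Map1lc3a from the others of 0.44 to 0.66. From the highest to the lowest change the order was Map1lc3a, Map1lc3b, Gabarap, Gabarapl2 and Gabarapl1. Of the neighbours in it, the first pair alone passed the test, and not with the averaged probe sets. Map1lc3b minus Gabarap was 0.02 (exact permutation p = 0.714), Gabarap minus Gabarapl2 was 0.12 (exact permutation p = 0.0857) and Gabarapl1 minus Gabarapl2 was -0.08 (exact permutation p = 0.286).

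**Figure D4:**
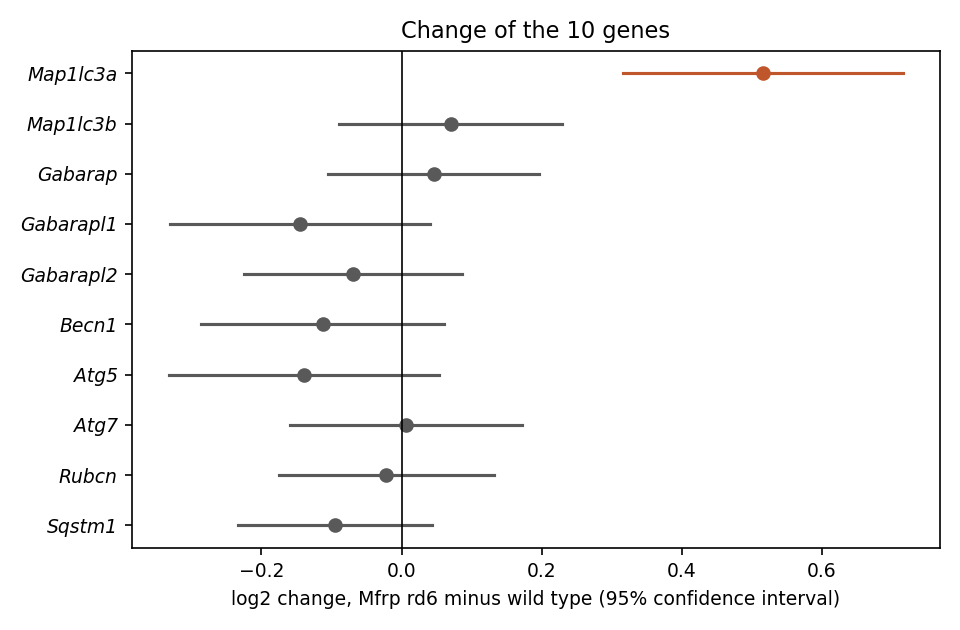
Log2 change of each of the 10 genes in Mfrp rd6 against wild type (points) with the 95% confidence interval of the limma fit (lines), orange where the adjusted p was under 0.05. The interval of Map1lc3a, 0.32 to 0.72, lies apart from 0, and the other 9 intervals include it.

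The genes for the conjugation enzymes differed little. Atg7, the activating enzyme of both ubiquitin-like conjugation systems, read 8.43, 8.67, 8.57 and 8.53 in wild type and 8.57, 8.53 and 8.57 in Mfrp rd6. Its change was 0.01, with a 95% confidence interval from -0.16 to 0.17, so a change of the size seen for Map1lc3a lies outside the interval. Atg5, the partner of ATG12, read 7.57, 7.83, 7.83 and 7.62 in wild type and 7.60, 7.61 and 7.51 in Mfrp rd6. Wild-type replicates 2 and 3 lay above all other arrays, and the change of -0.14 (SE 0.09, limma adjusted p = 0.501) did not pass. Of the 6 genes of ATG12 conjugation, 0 rose and 0 fell, with a median change of -0.04. Among those that are not members, Atg16l1, which directs the complex to the membrane, had the smallest p and differed by -0.09 (limma adjusted p = 0.569). Of the 5 genes of ATG8 processing and lipidation, 0 rose and 0 fell. The protease gene Atg4d read 8.90 ± 0.10 (SD, n = 4) and 8.69 ± 0.12 (SD, n = 3), a difference of -0.20 (limma adjusted p = 0.289).

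Initiation genes did not pass the test. Becn1 read 9.19, 9.40, 9.36 and 9.18 in wild type and 9.17, 9.15 and 9.19 in Mfrp rd6. As for Atg5, wild-type replicates 2 and 3 were high and replicates 1 and 4 were level with the mutant arrays, and the change was -0.11 (SE 0.08, limma adjusted p = 0.555). Of 10 genes of the class III PI3-kinase complexes, 0 rose and 0 fell, with a median of -0.02. Nrbf2, a subunit of the autophagy-specific kinase complex, read 9.85 ± 0.02 (SD, n = 4) and 9.69 ± 0.06 (SD, n = 3) without overlap (-0.16, limma adjusted p = 0.275). Of the 5 genes of the ULK1 kinase complex, which responds to nutrient state, 0 rose and 0 fell. Ulk1 itself was 0.14 higher (limma adjusted p = 0.538).

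The genes for ATG9, ATG2 and the PI3P-binding proteins, which supply lipid to the growing membrane, gave no call. Of 11 measured, 0 rose and 0 fell, and 9 had a negative change, as did 56.5% of all genes, with a median of -0.09. In 6 of the 11, all Mfrp rd6 arrays lay below all wild-type arrays, where 9.82% of all genes do so. Wipi1, a PI3P effector, read 9.52, 9.76, 9.84 and 9.59 in wild type and 9.34, 9.42 and 9.35 in Mfrp rd6 (-0.31, SE 0.09, limma adjusted p = 0.131). Named after their values were seen, the lipid scramblases Tmem41b (-0.28, adjusted p = 0.138) and Vmp1 (-0.21, adjusted p = 0.185) and the WIPI relative Wdr45 (-0.22, adjusted p = 0.184) did not pass limma's test. Tmem41b passed in 1 of 19 alternatives, the one with trended and robust moderation (limma adjusted p = 0.0451).

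Sqstm1 was slightly lower on every mutant array. It read 11.40, 11.44, 11.48 and 11.42 in wild type and 11.36, 11.34 and 11.32 in Mfrp rd6. The groups did not overlap, with a gap of only a few hundredths of a log2 unit between the nearest arrays. The change was -0.09 (fold 0.936, 95% confidence interval -0.23 to 0.04). The exact permutation test gave p = 0.0286, the smallest possible, while limma, which draws the small spread of such genes toward the spread of all genes, gave an adjusted p of 0.528. Sqstm1 and Map1lc3a were the 2 of the 10 genes whose groups did not overlap, 1 lower and 1 higher. Of all genes, 15.3% showed no overlap (9.82% lower and 5.52% higher in Mfrp rd6), so 1 lower gene among 10 is near the share of all genes. The Sqstm1 change was negative in all 19 alternatives, from -0.16 to -0.07, and passed in 0. Of 14 measured cargo receptor genes, 0 rose and 0 fell, and 12 had a negative change, with a median of -0.09. The other receptor with the smallest p, Calcoco1, was 0.20 higher (10.96 ± 0.12, SD, n = 4, and 11.16 ± 0.07, SD, n = 3, limma adjusted p = 0.279).

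Rubcn, which restrains canonical autophagy and is needed for LC3-associated phagocytosis, showed no difference past the test. It read 8.57, 8.57, 8.73 and 8.59 in wild type and 8.59, 8.60 and 8.59 in Mfrp rd6. All arrays but wild-type replicate 3 lay within a few hundredths of each other, and the change was -0.02 (95% confidence interval -0.18 to 0.13, limma adjusted p = 0.925). Of 6 measured genes of the oxidase that acts in the same process, 2 rose, 0 fell and the other 4 did not pass, where 2.15% of all genes passed. Their median change was 0.35. The cytosolic subunit Ncf1 read 6.33, 6.08, 6.29 and 6.17 in wild type and 6.89, 7.54 and 6.82 in Mfrp rd6 (0.87, SE 0.16, limma adjusted p = 0.0252). Rac2, the small GTPase of blood cell oxidases, read 7.19 to 7.26 in wild type and 7.53 to 7.68 in Mfrp rd6 (0.39, limma adjusted p = 0.0194). Named after their values were seen, the membrane subunits Cyba (0.40, adjusted p = 0.0593) and Cybb (0.31, adjusted p = 0.28) did not pass limma's test, and Rac1, which most cells express, differed by 0.01.

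Phagocytic blood cells also express Ncf1 and Rac2, and the mean of microglia and macrophage markers was 1.74 higher in the mutant. Mfrp rd6 replicate 2 had the highest microglia and macrophage mean, 9.32, and the highest Ncf1, 7.54, and Rac2, 7.68. With that mean as a covariate the change was -1.44 for Ncf1 and -0.04 for Rac2, with limma adjusted p of 0.96 and 0.999, in a fit that made 0 calls over all genes. The part of these cells in the Ncf1 and Rac2 values was not tested. Ncf1 and Rac2 each passed in 10 alternatives, of 18 and 19 that tested them. Both calls were lost without wild-type replicate 1, 3 or 4 (limma adjusted p of 0.0503 to 0.0708), that of Ncf1 also without wild-type replicate 2 (0.0661) and that of Rac2 also without Mfrp rd6 replicate 1 (0.0668) or 2 (0.0883). Both were also lost with the rod mean as a covariate (limma adjusted p of 0.0951 for Ncf1 and 0.116 for Rac2) and with that of skeletal muscle (0.724 and 0.525).

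**Figure D5:**
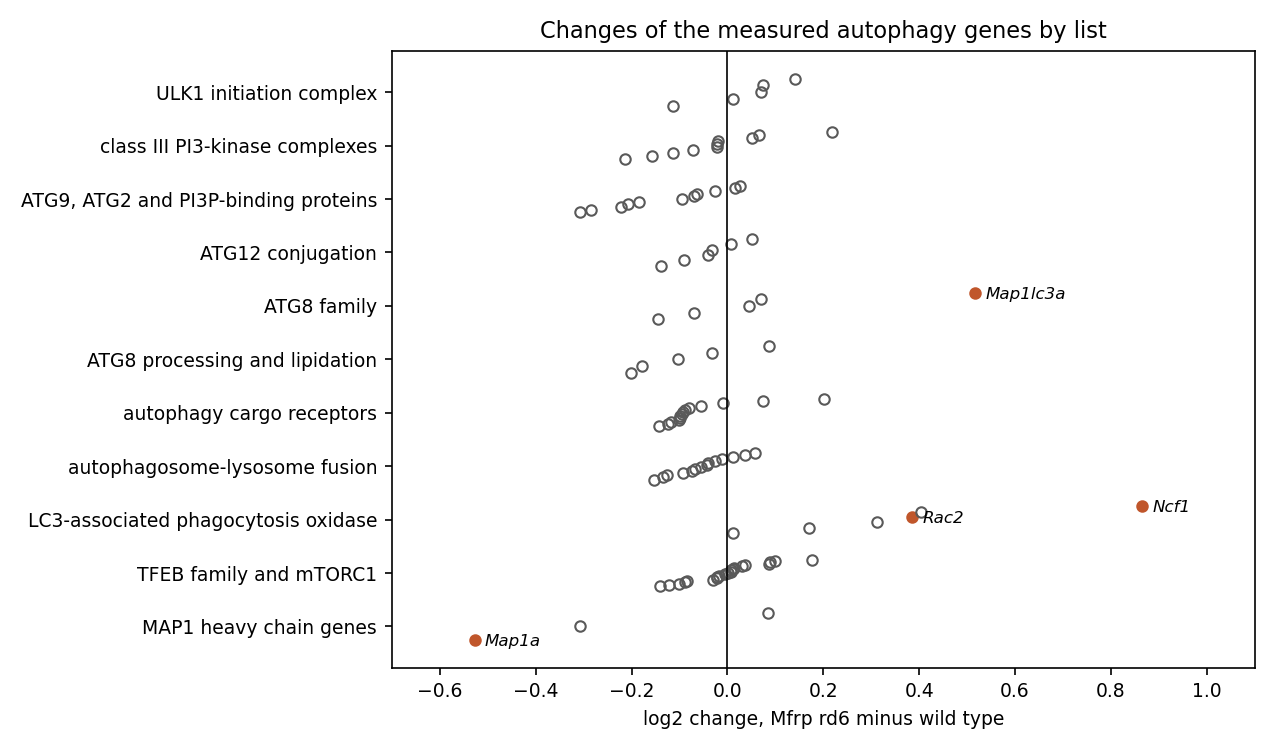
Log2 change (Mfrp rd6 minus wild type) of the 100 measured genes of 11 autophagy lists, 1 point per gene, each gene drawn in its first list, filled and named where the limma adjusted p was under 0.05. The 4 filled points are Map1lc3a (0.52), Ncf1 (0.87), Rac2 (0.39) and Map1a (-0.53).

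Later steps and their control gave no call. Of 14 genes of autophagosome-lysosome fusion, 0 rose and 0 fell, with changes of -0.15 to 0.06. The largest in size was that of Tecpr1, a tethering factor (-0.15, limma adjusted p = 0.371). Of 21 genes of the TFEB family and of mTORC1, which opposes it, 0 rose and 0 fell, with changes from -0.14 to 0.18 and a median of 0.00. The smallest p in this list was that of Lamtor5, a part of the lysosomal anchor of mTORC1 (-0.14, limma adjusted p = 0.46). Over the lists as a whole, 100 of 102 genes were measured. Of the 90 that are not members, 2 rose and 1 fell, where 1.34% of all genes rose and 0.813% fell. Their median change was -0.03. At an unadjusted limma p under 0.05, 13 of these 90 passed, against 3061 of all 19938 genes. In the lists without a call, the genes under that p were 4 of 11 for ATG9, ATG2 and PI3P binding and 1 of 10 for the PI3-kinase complexes. They were also 1 of 5 for ATG8 processing, 1 of 14 for cargo receptors and 0 for the rest.

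The gene that fell was Map1a. LC3 was first found as a light chain of the microtubule-associated proteins that Map1a and Map1b encode. Map1a read 6.91, 7.02, 7.15 and 7.03 in wild type and 6.36, 6.55 and 6.59 in Mfrp rd6. The groups were clearly apart, and the change was opposite in sign to that of Map1lc3a and of nearly the same size (fell by 0.53 on the log2 scale, SE 0.08, limma adjusted p = 0.0137). Map1b differed by -0.31 (limma adjusted p = 0.212) and Map1s, a shorter relative, by 0.09 (limma adjusted p = 0.662), both named after their values were seen. Map1a is mostly a neuronal gene. The rod means were 7.30 to 8.44 in wild type and 7.11 to 7.47 in Mfrp rd6. They overlapped, as did the inner retinal neuron means, and 0 of 14 markers in either list passed the test. All 14 rod markers had a negative change, with a median of -0.49, and 3 lay lower without overlap, where 9.82% of all genes did. Of the inner retinal neuron markers, 11 of 14 had a negative change, with a median of -0.12, and 1 lay lower without overlap. The part of neuronal RNA in the Map1a fall was not tested. With the rod mean as a covariate, a fit with 165 calls over all genes against 429, Map1a changed by -0.44 (limma adjusted p = 0.101). It passed in 14 of the 18 alternatives that tested it, with changes from -0.77 to -0.44, and of the fits that left out 1 array it missed only without Mfrp rd6 replicate 1 (-0.46, limma adjusted p = 0.0561).

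The 5 genes whose profile over the 7 arrays was nearest to that of Map1lc3a, by the root mean square difference of centred log2 values, were Csrp2 (0.0663), Id1 (0.0683), Loxl1 (0.0688), Rab3il1 (0.0735) and Plcl1 (0.0748). These were picked from all genes for this likeness, which fixes the direction and the separation of the groups, so their changes are given as a description with no test. Csrp2 encodes a LIM-domain protein of smooth muscle, Id1 an inhibitor of helix-loop-helix factors, Loxl1 an enzyme that cross-links elastin, Rab3il1 an exchange factor for Rab proteins, and Plcl1 an inactive relative of phospholipase C. The log2 changes were 0.56 for Rab3il1, 0.49 for Id1, 0.46 for Csrp2, 0.43 for Plcl1 and 0.40 for Loxl1. None of the 5 is a gene of the autophagy lists.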

How the data were processed

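The authors deposited 1 table of log2 values for 35556 probe sets and 7 arrays. Per the submitters' processing notes, Affymetrix Expression Console and RMA were used, versions not given in the sources used here. This method makes the arrays' distributions alike and understates changes near the floor. Gene names came from the array's annotation and may be outdated: 21789 had 1 symbol, 1621 several and 12146 none. The 19938 genes, by their brightest probe set, were fitted with limma 3.58.1 (R 4.3.3), giving Mfrp rd6 minus wild type without filter, block or covariate. P-values were adjusted by Benjamini-Hochberg over all genes, threshold 0.05. Exact permutation tests used the 35 assignments of 7 arrays to groups of 3 and 4. The procedure was tested on simulated data. Python 3.11.15, pandas 2.3.3 and matplotlib 3.10.9 made tables and figures.

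Members and lists were chosen with earlier results of these data known. Named were the members, from each pathway list up to 3 called genes that are not members or else the one with the smallest p, and the 5 nearest profiles of Map1lc3a (leaving out olfactory, vomeronasal, small RNA, clone and predicted names). The 19 alternatives were 2 normalizations between arrays, 2 filters, trend and robust moderation, array weights, 2 treatments of probe sets, a replicate block, 3 marker covariates and leaving out each array. The arrays' number limits the precision, with a median standard error of 0.09.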

Additional observations from a re-analysis of the deposited data

Results flagged for a closer look

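In 4 wild-type arrays, 5 of 53 groups of values held 1 array far from the other 3, where chance alone gives about 1 in 20. Map1lc3b read 10.72 in wild-type replicate 1 against 10.87 in the next array, and Wdr45 read 8.97 in the same replicate against 9.14. Rubcn read 8.73 in wild-type replicate 3 against 8.59. Tecpr1 read 7.77 in wild-type replicate 4 against 7.89. Rac2 read 7.26 in wild-type replicate 2 against 7.19 in the other 3 arrays.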

How the results depend on the processing

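The call on Map1lc3a, 1 of 10 genes, became 0 with the replicate number as a block and with the skeletal muscle mean or that of microglia and macrophages as a covariate, and was 0 or 1 when 1 array was left out. Over all genes, 429 calls became 718 with trend and robust moderation, 679 with array weights, 226 with the replicate block, 165 with the rod mean, 50 with the skeletal muscle mean and 0 with the mean of microglia and macrophages (921 at an unadjusted limma p under 0.05), and 211 to 325 without 1 array. Covariates and left-out arrays leave less of the contrast to estimate. The Map1lc3a change itself was also smaller with the mean of skeletal muscle (0.30) or of microglia and macrophages (0.34) than in the main fit (0.52). Why calls were lost was not tested. Same-numbered arrays of the groups deviated with correlations of -0.30, -0.07 and 0.04. With so few arrays these values cannot settle whether the numbers mark pairs. In the blocked fit Map1lc3a changed by 0.53 (limma adjusted p = 0.0695), Ncf1 by 0.85 (0.0695) and Rac2 by 0.38 (0.147).

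Signs turned, in values that missed the threshold there, as follows. With the mean of microglia and macrophages as covariate the changes were 0.0068 for Gabarapl2, 0.30 for Atg4d, -0.35 for Calcoco1, -1.44 for Ncf1, -0.0386 for Rac2, -0.0071 for Loxl1, -0.39 for Cyba, 0.23 for Map1b and -0.46 for Map1s. With the skeletal muscle mean they were -0.0089 for Atg7, -0.0543 for Calcoco1 and -0.0774 for Map1s. Atg7 was at -0.0092 with arrays shifted to 1 median and between -0.0333 and 0.0467 without 1 array. Rubcn was at 0.0005 with quantile normalization repeated and 0.0378 with the rod mean, and between -0.0367 and 0.0167 without 1 array.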
